A study of Mus musculus with 2084 samples.

Results

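The nuclear-encoded genes of oxidative phosphorylation were followed through the neural stem cell lineage of adult mice. They were taken from the main count table as the protein-coding symbols starting with Nduf, Uqcr, Cox4, Cox5, Cox6, Cox7, Cox8 or Atp5, plus Sdha to Sdhd. This gave 93 identifiers (92 symbols, since Atp5o has 2 identifiers) of 35606 genes, and 13 matching pseudogene or noncoding symbols were left out. By role they comprise 7 core subunits, 29 other subunits and 8 assembly factors of complex I, 4 genes of complex II, 8 of complex III, 19 of complex IV and 18 of ATP synthase. Of these, 88 passed the filter on low counts in each tested fit.

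Complexes I to IV pass electrons from NADH and succinate to oxygen. Complexes I, III and IV pump protons across the inner mitochondrial membrane, and ATP synthase uses the gradient to make ATP. A few core subunits are encoded in mitochondrial DNA, while the genes described here are transcribed in the nucleus and their proteins imported. Quiescent neural stem cells and astrocytes are generally described as more glycolytic, and activated stem cells and their progeny as relying more on mitochondrial respiration.

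RNA was read by Smart-seq3 as the transcriptome arm of a combined transcriptome and epigenome assay, with each labelled sample being 1 cell. The letter in a cell's name, pA to pM, is the biological replicate, of individual or pooled mice, so the counts of all cells sharing a letter and a type, or a letter and a sort, were added up. Letters pA to pE were naive WT mice, given neither tamoxifen nor ischemia, with the labelled types qNSC1 and qNSC2 (quiescent neural stem cells), aNSC (active stem cells), TAP (transit amplifying progenitors), neuroblast and oligodendrocyte from the ventricular-subventricular zone (vSVZ), and striatal astrocytes in pE. Letter pF was WT naive olfactory bulb and late rostral migratory stream, and pL was WT (TCF-Lef reporter) naive cortex and striatum. Letter pM was naive TiCY, pI was TiCY 2 d after ischemia and pH TiCY 21 d after ischemia. Letter pJ held naive IFN(A/G)R KO cells and TiCY-IFN(A/G)R KO cells 2 d after ischemia. In TiCY mice tamoxifen, given at 2 months of age, switches on YFP in cells expressing Tlx, and both carotid arteries were occluded 2 weeks later. The sources used here do not give the ages of the WT and IFN(A/G)R KO mice. The naive IFN(A/G)R KO label does not name TiCY, so the 2 d contrast within pJ also differs in that label.

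The 1981 labelled cells used held a median of 160621 counts (3771 to 1842230), and the median per letter ran from 120498 in pD to 1000340 in pB. A cell had a count in a median of 64 members, which took a median of 1.67% of its counts. Marker genes set some labels apart. Summed oligodendrocyte markers were 51245 to 84048 CPM (a gene's counts scaled to the depth of its sum) in oligodendrocytes and at most 279 in neuroblasts. Cycling markers were 1407 to 7806 CPM in TAPs against at most 615 in qNSC2. Over all letters, TAPs and neuroblasts overlapped in these markers. Neuroblast markers were 1006 to 5735 CPM in TAPs and 912 to 8097 in neuroblasts, and cycling markers reached 1673 in a neuroblast sum. In the knockout, Ifngr1 was at 0.457 and 0.0981 CPM in naive striatum and vSVZ against 34.2 and 21.7 in naive TiCY, and Ifnar1 at 8.90 and 11.9 against 61.3 and 48.9. The sources used here do not say whether labelled types were assigned from the transcriptome. The surface sorts of pA, pB and pC (NSC, ASTRO, NB, OLIGO), made with antibodies, do not rest on it and were therefore tested as well. By label these sorts are mixed, so their comparisons are not of pure types. NSC of pA and pB held labelled oligodendrocytes beside qNSC1, and NB of pC held some TAPs. ASTRO of each letter held qNSC1, aNSC and neuroblasts.

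Nuclear respiratory factor 1 (NRF1) is a textbook activator of respiratory chain genes, and its motif is shown first because it occurs before the RefSeq start of several members named below. RefSeq promoters (GRCm38.p6) were matched for 74 of 92 symbols and searched on both strands over the 250 bases before the start. The 10-base motif, whose matches are the capitals in the windows below and in which any base was allowed at the sixth position, was present in 14 of 74 members (18.9%) and in 6.05% of 16522 protein-coding genes. The ETS motif CCGGAAG was in 18.9% against 10.5%, the YY1 motif AANATGGCG in 4.05% against 1.63%, the ERR motif TCAAGGTCA in 1.35% against 0.369%, and the GC box GGGCGG in 39.2% against 47.5%. The member promoters had a median GC content of 56.4% against 52.4% for all RefSeq promoters, and a match is a description of these letters, not a site. Windows around the NRF1 match (capitals) are given on the gene's strand for 2 subunits whose levels are described below, and for 3 that stood higher in the bulb or after ischemia. Of the Sdha window 5 bases lie in an annotated exon, and of the others none.
Ndufs5, chr4:123718265-123718294, minus strand: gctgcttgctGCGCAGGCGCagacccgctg
Sdha, chr13:74350276-74350305, minus strand: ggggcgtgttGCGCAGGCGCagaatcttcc
Atp5h, chr11:115420041-115420070, minus strand: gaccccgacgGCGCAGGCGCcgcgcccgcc
Cox6a1, chr5:115349056-115349085, minus strand: cggataaagtGCGCAGGCGCtggagttcct
Ndufa11, chr17:56717692-56717721, plus strand: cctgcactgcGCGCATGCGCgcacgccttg

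The upstream stretches of Cox6b2 and Cox7a2l are shown because these were the complex IV genes that fell and rose in neuroblasts. They precede the RefSeq start, which for Cox7a2l lies inside the gene as GENCODE draws it (to 83517330). Neither 250-base window held the NRF1 motif, and capitals mark the GC box in Cox7a2l.
Cox6b2, chr7:4753095-4753225, minus strand: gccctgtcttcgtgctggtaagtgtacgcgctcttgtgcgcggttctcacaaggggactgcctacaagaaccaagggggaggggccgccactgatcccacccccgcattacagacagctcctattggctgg
Cox7a2l, chr17:83514334-83514583, minus strand: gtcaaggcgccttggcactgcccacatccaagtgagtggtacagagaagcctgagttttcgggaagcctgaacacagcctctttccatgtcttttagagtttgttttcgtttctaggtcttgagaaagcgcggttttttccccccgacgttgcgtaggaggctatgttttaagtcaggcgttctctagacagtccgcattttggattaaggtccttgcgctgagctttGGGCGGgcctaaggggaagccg

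Letters differed in how much of a library the members took, and this had to be settled before types were compared. In qNSC1 the members were at 0.633, 0.779 and 0.813% of counts in pA, pB and pE, at 1.54% in pC and at 2.89% in pD. The median member was 3.85-fold higher in pC and pD than in pA, pB and pE, while the median of all 7970 genes compared was 0.925. The gap ran with transcript length: 6.77-fold for 18 members with exons of 1 kb or less, 3.87-fold for 31 of 1 to 2 kb and 2.03-fold for 33 longer ones. All genes of 1 kb or less differed too, by a median of 3.51-fold over 149 genes. Members are short, with a median exon length of 1569 bp against 3488 bp for protein-coding genes. Neuroblasts and oligodendrocytes showed the same split, by 2.63-fold and 2.14-fold for the median member. Shares of counts of labelled types are therefore compared only within a letter. For the bulb and for TiCY after ischemia each group is its own letter, so shares there are set across letters. The tests of WT types take in letters of both sets, so their medians mix type with library set, and values with the letter as a block or within a set are given beside them. Of the 2 identifiers of Atp5o, 1 held counts in pA to pF and was at 0.633 CPM in pH to pM. The other held counts only in pH to pM. Atp5o was therefore compared only within pA to pF or within pH to pM, and its WT tests take in both sets above.

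**Figure D1:**
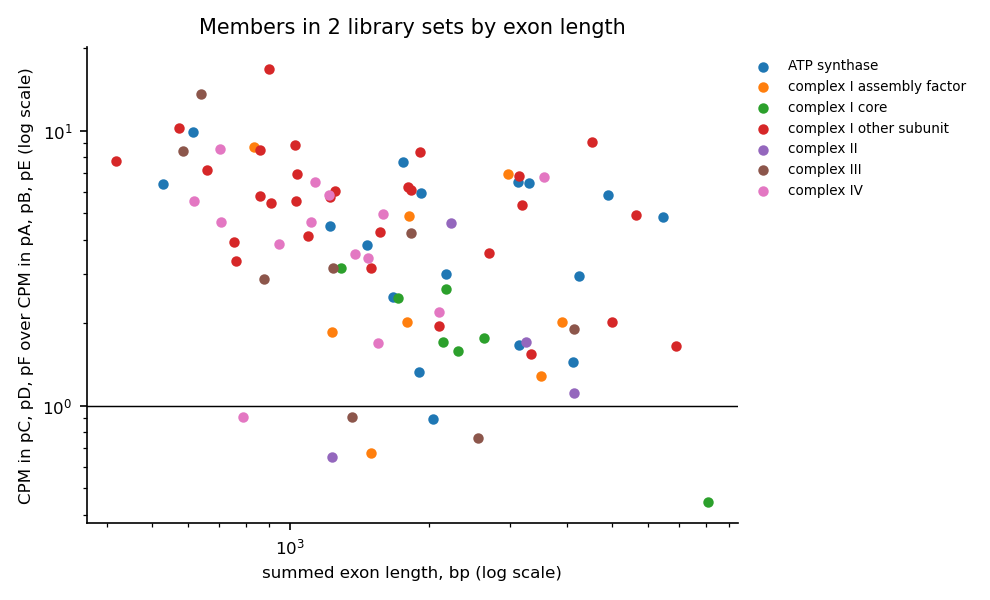
Ratio of each member's CPM in letters pC, pD and pF over that in pA, pB and pE (log axis) against its exon length in bp (log axis), 1 point a member, coloured by role. Of 87 members, 80 lay above 1, with a median ratio of 4.25 and a range of 0.447 to 16.8, and shorter members lay higher.

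Within a letter, the members together took their largest share of counts in TAPs. In pD their share was 2.89% in qNSC1, 2.59% in qNSC2, 3.41% in aNSC, 3.70% in TAP and 2.97% in neuroblasts. In pM it was 1.40% in vSVZ astrocytes, 1.38% in qNSC2, 1.94% in aNSC, 2.00% in TAP and 1.65% in neuroblasts. In naive pJ it was 1.70%, 1.57%, 2.34%, 2.62% and 2.07% for the same types. Each of the other sums with TAPs ordered them highest too: 1.78% in pC, 1.20% in pE and 2.81% in pJ at 2 d.

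Set as ratios, TAP over qNSC2 ran from 1.33 to 1.67 and aNSC over qNSC2 from 1.26 to 1.49, above 1 in 5 of 5 sums, with pJ entering at both times. TAP over aNSC was 1.03 to 1.25 in 6 of 6 and neuroblast over TAP 0.789 to 0.825 in 5 of 5. The smaller steps were qNSC2 over qNSC1, 0.836 to 0.925 in 4 of 4 letters, and aNSC over qNSC1, 0.923 to 1.25, which was above 1 in 2 of 3. Neuroblast over qNSC1 was below 1 in 3 of 4 letters (0.840 to 1.03) and oligodendrocyte over neuroblast in 3 of 4 (0.898 to 1.03). These are summed levels, with no test. A sum alone does not tell fewer expressing cells from less RNA per cell. With cells weighted equally, as the mean share per cell, TAP over qNSC2 ran from 1.35 to 1.78. Neuroblast over TAP was then 0.778 to 0.807. The number of cells with counts was not compared for the members together. Several sums rest on few cells, such as 3 TAPs and 3 aNSC in pE and 7 neuroblasts in pD.

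From qNSC2 to aNSC most members lay higher, yet none passed the test. In WT cells 78 of 88 lay higher and 10 lower, with a median log2 fold change of 0.82 against -0.10 for all genes. None was called at an adjusted p of 0.05 (edgeR's quasi-likelihood test, Benjamini-Hochberg over all genes), where 0.194% of all genes were. At an unadjusted p under 0.05 there were 2, and DESeq2 called 0. The types do not come from the same letters, and with the letter as a block the median was 0.42, with 69 of 88 higher, 12 at an unadjusted p under 0.05 and 1 called (2.09% of all genes). Within pA, pB and pE, where aNSC are 3 cells of pE alone, the median was 0.65. Within pC and pD, where qNSC2 come from pD alone, it was -0.10 with 42 higher and 46 lower. The member called with the block was Ndufs4, an accessory subunit of complex I often mutated in Leigh syndrome. Its CPM, scaled by edgeR's TMM factors as in all tested comparisons here, was 72.0, 209 and 56.3 in aNSC of pC, pD and pE, and 2.17, 11.9, 85.8 and 18.8 in qNSC2 of pA, pB, pD and pE, so the groups overlap (log2 fold change 1.81 ± 0.46 SE, adjusted p = 0.0466, block). In naive pM and pJ 64 of 88 lay higher (median 0.33 against -0.27) and 0 were called (0.05% of all genes), with 4 at an unadjusted p under 0.05 and 0 by DESeq2.

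By role, the WT medians of aNSC over qNSC2 were 1.28 for complex I assembly factors (8 of 8 higher), 0.92 for complex IV (13 of 15), 0.89 for other complex I subunits (27 of 29), 0.87 for complex III (6 of 8), 0.78 for ATP synthase (16 of 17), 0.44 for complex I core subunits (6 of 7) and 0.31 for complex II (2 of 4). In pM and pJ they were 0.29 to 0.44 for all roles other than complex II, which was at -0.13. With the block the WT medians were 1.01 for assembly factors, 0.52 for complex IV, 0.48 for complex III, 0.45 for ATP synthase, 0.30 for other complex I subunits, 0.27 for complex II and 0.26 for complex I core subunits. Among the smallest p-values was Cox7a2l, with 239 ± 88.8 CPM (SD, n = 3) in aNSC and 41.0 ± 49.4 (n = 4) in qNSC2, which did not pass (log2 fold change 2.54 ± 1.09 SE, adjusted p = 0.273, edgeR).

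From TAPs to neuroblasts the direction turned. In WT cells 80 of 88 members lay lower (median -0.80 against 0.07 for all genes), 0 were called by edgeR (0.0939% of all genes were) and 1 by DESeq2 (2.23%), with 9 at an unadjusted p under 0.05. With the letter as a block the median was -0.52 and again 0 were called (0.114% of all genes), with 16 at an unadjusted p under 0.05. All 7 core subunits of complex I and 4 of 4 complex II genes lay lower, with medians of -0.92 and -0.93, as did 27 of 29 other complex I subunits and 16 of 17 ATP synthase genes. With the block these were 6 of 7 (-0.60), 4 of 4 (-0.72), 25 of 29 and 13 of 17. Ndufv2, a core iron-sulfur subunit of the NADH dehydrogenase module, had 141, 213 and 202 CPM in TAPs of pC, pD and pE. Neuroblasts of pA to pD had 20.9, 66.8, 94.4 and 25.8 CPM. The groups did not overlap, but the difference passed only in DESeq2 (log2 fold change -1.83 ± 0.58 SE, adjusted p = 0.327 in edgeR, 0.0295 in DESeq2).

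In naive pM and pJ, 66 of 88 lay lower in neuroblasts than in TAPs (median -0.60 against -0.16) and 4 fell, against 4.1% of all genes called. These were Ndufaf5, Atp5s, Ndufc2 and Cox6b2, and 3.54% called lower. DESeq2 called 11 (18.1% of all genes), and the block added Ndufs5 and Uqcrq (6 called, 4.29% of all genes; adjusted p = 0.0275 and 0.0376, edgeR). Ndufc2, an accessory subunit of the membrane arm of complex I, had 368 and 378 CPM in TAPs of pJ and pM and 95.6 and 74.0 in neuroblasts (log2 fold change -2.14 ± 0.53 SE, adjusted p = 0.0408, edgeR). Its 2 groups were well apart. In WT neuroblasts it ran from 31.6 to 84.9 CPM in pA to pC but was at 899 in pD, and reads of the overlapping Gm16053 on the same strand cannot be told apart from its own. Ndufs5, another accessory subunit, had 73.4 and 50.6 CPM in neuroblasts and 346 and 220 in vSVZ astrocytes (log2 fold change -2.19 ± 0.54 SE, adjusted p = 0.0187).

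Ndufaf5, a complex I assembly factor, and Atp5s, a small ATP synthase-linked protein, had no count in naive neuroblasts of pJ and pM. In TAPs Ndufaf5 had 28.9 and 28.8 CPM and Atp5s 14.8 and 31.0. Counting 3 counts over the group as the floor, they were at least 36.7-fold and 29.2-fold lower (adjusted p = 0.0141 and 0.0409, edgeR). Those zeros rest on 8 cells of pJ and 15 of pM. Elsewhere neuroblasts did have counts: Atp5s was at 11.3, 4.14, 18.2 and 1.23 CPM in WT pA to pD, and Ndufaf5 at 3.28, 4.30, 4.87 and 0.

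Against quiescent stem cells and astrocytes, Cox6b2 fell in neuroblasts in each of the tested comparisons. It encodes an isoform of a peripheral complex IV subunit best known from testis, and lies at chr7:4751792-4753094 (GRCm38, minus strand). In WT qNSC1 it was at 8.42, 11.1, 58.5, 29.5 and 6.24 CPM in pA to pE. In WT neuroblasts it was at 0.0656, 0, 0.212 and 2.46 CPM in pA to pD. The letters do not overlap (log2 fold change -6.08 ± 1.83 SE, adjusted p = 0.0323 in edgeR, 0.00146 with the block, lower in 4 of 4 letters), and 7.7% of all genes were called lower there. The surface sorts gave 5.11, 6.0 and 54.3 CPM in NSC and 0.0735, 0 and 0 in NB (adjusted p = 0.0226, 8.16% of all genes called lower). Without any 1 of pA, pB or pC the call was lost in both comparisons (0 members called), and without pD 3 members were called.

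In naive pM and pJ, Cox6b2 was at 58.0 and 15.3 CPM in vSVZ astrocytes of pJ and pM, and at 57.0 and 6.64 in TAPs. Neuroblasts had no count, which makes them at least 46.7-fold lower than astrocytes (adjusted p = 0.0169, edgeR) and at least 40.5-fold lower than TAPs (adjusted p = 0.0405). Over all 7 sums of vSVZ neuroblasts, 178 cells held 4 Cox6b2 counts in all, 0 to 2 in a sum. WT TAPs were already low, at 2.17 to 3.79 CPM. Few cells carry the gene even where it is high: 19.9% of all cells had a count, and in qNSC1 of pA, pB, pC, pD and pE these were 4 of 13, 6 of 11, 8 of 17, 9 of 57 and 5 of 20 cells, with 31.1% to 59.1% of a letter's counts in 1 cell. Its sister Cox6b1 was measured in every type and passed no test here (edgeR with or without the block, and DESeq2).

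Cox7a2l, an assembly factor that joins complexes III and IV into supercomplexes, went the other way. In naive pJ and pM it was at 88.9 and 95.8 CPM in vSVZ astrocytes, 216 and 112 in qNSC2, 261 and 128 in aNSC, 306 and 193 in TAPs and 455 and 434 in neuroblasts. Within each letter it thus climbed along the lineage, and neuroblasts rose over astrocytes by a log2 fold change of 2.27 ± 0.60 SE (444 ± 14.5 against 92.3 ± 4.86 CPM, SD, n = 2 each, adjusted p = 0.0264, edgeR, 2.54% of all genes called higher). In WT qNSC1 it was at 23.3, 29.1, 88.0, 325 and 42.4 CPM in pA to pE and in WT neuroblasts at 95.9, 142, 429 and 283 in pA to pD. The WT difference passed only with the letter as a block (log2 fold change 1.91 ± 0.62 SE, adjusted p = 0.0375, against 0.455 without), and was higher in 3 of 4 letters, pD being the exception. The sorts gave 107, 168 and 430 CPM in NB and 51.3, 36.9 and 93.0 in NSC.

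**Figure D2:**
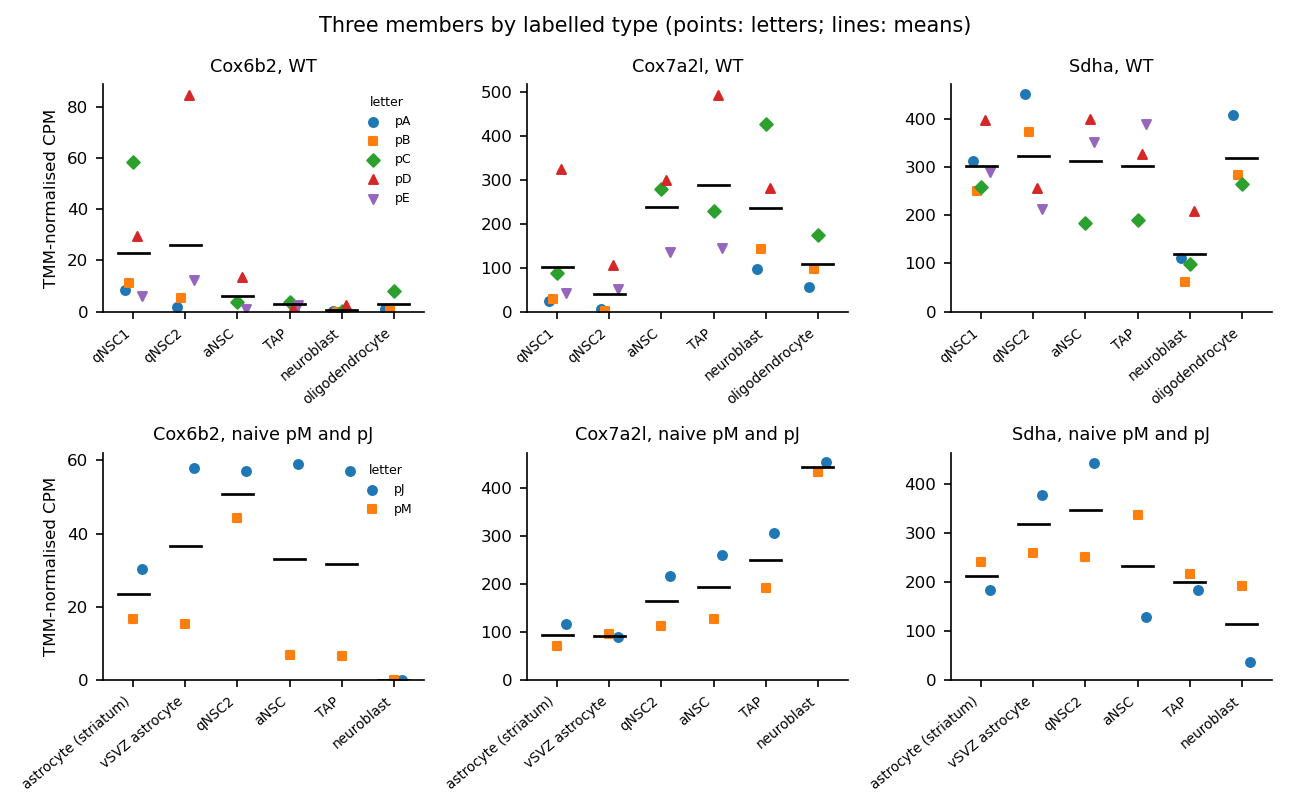
TMM-scaled CPM of Cox6b2, Cox7a2l and Sdha by labelled type, points being letters and lines means, with WT letters in the upper row and naive pM and pJ in the lower. Cox6b2 is at or near 0 in neuroblasts of each letter, Cox7a2l is highest there in pM and pJ, and the mean of Sdha is lowest in neuroblasts in both rows.

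Sdha, the flavoprotein of succinate dehydrogenase, serves both the TCA cycle and the respiratory chain. It was lower in neuroblasts than in oligodendrocytes and in WT qNSC1. By surface sort it was at 382, 250 and 270 CPM in OLIGO and 123, 58.1 and 118 in NB of pA, pB and pC, with no overlap (log2 fold change 1.59 ± 0.48 SE, adjusted p = 0.0418, 3 of 3 letters, 7.58% of all genes called higher). The call was lost without pA, pB or pC (adjusted p = 0.224, 0.345 and 0.0635), with no filter on low counts (0.0827) and in limma with cells weighted equally (0.0652). In that limma fit 0 members were called higher and 1 lower, with a median of -0.02. WT qNSC1 had 314, 251, 258, 398 and 289 CPM in pA to pE and WT neuroblasts 111, 60.6, 97.8 and 209 in pA to pD, also with no overlap. That difference missed the threshold without the block and passed with it (log2 fold change -1.39 ± 0.34 SE, adjusted p = 0.0581 and 0.00696). The antisense gene Gm16125 overlaps Sdha, and the sources used here do not say whether the counting used strand. In naive pM and pJ, neuroblasts had 36.2 CPM in pJ and 192 in pM.

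Neuroblasts against qNSC1 gave 1 call without the block, Cox6b2, where 12.4% of all genes were called, and 10 with it, where 19.8% were. Of 88 members, 53 lay lower and 35 higher (median -0.29 against -0.17 for all genes). With the block the 9 that fell were Cox6b2, Sdha, Uqcrc1, Ndufv2, Ndufab1, Ndufa12, Ndufa13, Ndufb2 and Ndufb4, and Cox7a2l rose. Uqcrc1, a core protein of complex III, was at 65.3, 77.8, 81.9 and 300 CPM in neuroblasts and 209, 207, 197 and 502 in qNSC1 of the same 4 letters (adjusted p = 0.00318, block). Ndufab1, the acyl carrier protein that is also a complex I subunit, was at 34.0, 48.9, 62.2 and 60.2 CPM against 87.6, 80.4, 123 and 203 (adjusted p = 0.0146, block). By surface sort 1 member was called without the block (11.8% of all genes) and 4 with it (19.2%), Cox6b2, Sdha, Ndufv3 and Uqcr10, lower in NB.

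The direction in oligodendrocytes depended on the letters, since pD has none. Against neuroblasts, 62 of 88 members lay lower without the block (median -0.50) and 62 higher with it (median 0.46). The median was 0.42 within pA, pB and pE and -0.57 within pC and pD, and the members' share was below that of neuroblasts in 3 of 4 letters. With the block 9 rose (16.1% of all genes called in either direction): Sdha, Ndufs7, Ndufs8, Ndufa3, Ndufa6, Ndufb4, Uqcr10, Uqcrq and Atp5h. Within pA, pB and pE alone the block gave 1 call. Without it 0 were called (11.4% of all genes), with 1 at an unadjusted p under 0.05 and 1 by DESeq2 (19.1%). Ndufs7, a core iron-sulfur subunit, had 200, 90.4 and 121 CPM in oligodendrocytes of pA, pB and pC and 52.0, 23.2 and 80.0 in neuroblasts (log2 fold change 1.79 ± 0.52 SE, adjusted p = 0.0242, block). Uqcrq, a small subunit of complex III, had 103, 76.9 and 76.3 CPM against 15.1, 34.1 and 63.1 (adjusted p = 0.0259, block).

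By surface sort OLIGO against NB gave 1 call without the block (15.7% of all genes) and 5 with it (22.4%): Sdha, Ndufv1, Uqcr10 and Ndufa3 higher (Ndufa3 at the threshold), and Uqcrh, the hinge protein of complex III, lower. Ndufv1, the NADH-binding core subunit, was at 102, 85.3 and 65.7 CPM in OLIGO and 15, 20.4 and 47.9 in NB (adjusted p = 0.0333, block). Uqcrh was at 31.8, 57.5 and 137 CPM in OLIGO and 96.8, 171 and 242 in NB (log2 fold change -1.35 ± 0.31 SE, adjusted p = 0.0128, block). Oligodendrocytes against qNSC1 gave 0 calls without the block (11% of all genes; 3 at an unadjusted p under 0.05, 1 by DESeq2, 17.1%) and 2 with it (14.7%), Ndufaf2 higher and Cox7a1 lower. OLIGO against NSC gave 0 (6.1% of all genes; 3 at an unadjusted p under 0.05, 0 by DESeq2), with 44 of 88 members higher. The NSC sorts of pA and pB themselves held labelled oligodendrocytes.

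The remaining comparisons called 0 members. They were qNSC2 against qNSC1 (0.0805% of all genes called; median -0.46, 72 of 88 lower, 1 at an unadjusted p under 0.05), aNSC against qNSC1 (2.07%; 0.32, 68 higher, 1), TAP against aNSC (0%; 0.21, 66 higher, 1) and ASTRO against NSC (0.0906%; -0.11, 57 lower, 0). In pM and pJ they were striatal against vSVZ astrocytes (0%; 0.04, 52 higher, 0), qNSC2 against vSVZ astrocytes (0.0125%; -0.27, 62 lower, 1), aNSC against vSVZ astrocytes (1.49%; 0.12, 51 higher, 1) and TAP against aNSC (0.0312%; 0.09, 51 higher, 2). DESeq2 called 0 in these other than 1 in the last (4.63% of all genes). With the block the median of aNSC against qNSC1 turned to -0.15. For qNSC2 against qNSC1 the block left 76 lower, with 18 at an unadjusted p under 0.05. Within pC and pD the median turned to 0.16, with 51 higher and 37 lower. There qNSC2 come from pD alone and qNSC1 from both letters, and within pD the ratio of shares was 0.896. Neuroblasts against vSVZ astrocytes of pM and pJ gave 6 calls (12.6% of all genes, 10.1% lower), Cox7a2l higher and Ndufaf5, Atp5s, Ndufs5, Ndufc2 and Cox6b2 lower.

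Isoform pairs were uneven. Cox4i1, the common form of complex IV subunit 4, was at 226 to 584 CPM in the naive pM and pJ types. Cox4i2, its oxygen-regulated form, had no count in WT TAPs and oligodendrocytes or in naive neuroblasts of pJ and pM. It was at 29.8 and 14.5 CPM in striatal astrocytes of pJ and pM. Of the 3 genes for the same c-ring protein of ATP synthase, Atp5g2 was at 186 and 102 CPM in vSVZ astrocytes of pJ and pM, 296 and 145 in qNSC2, 536 and 164 in aNSC, 584 and 359 in TAPs and 342 and 128 in neuroblasts. Atp5g1 was at 255 and 104 CPM in TAPs and 83.9 and 46.0 in vSVZ astrocytes. Atp5b, the catalytic beta subunit, was the member with most counts over all cells (290115). In the naive pM and pJ types it ranged less than Atp5g2, from 358 to 938 CPM. Elsewhere it reached 1799 CPM without TMM scaling, in WT neuroblasts of pD. Cox7a1, the muscle form of subunit 7a, reached 26.3 CPM in aNSC of pJ and was at 0 in qNSC2 and neuroblasts of pJ and pM, while in WT it reached 20.0 in TAPs of pC and 17.1 in qNSC1 of pD. Cox6a2, Cox8b and Ndufa4l2 did not pass the filter on low counts.

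Other genes of mitochondrial energy metabolism were followed in the same comparisons. Of 17 TCA cycle genes, which supply NADH to complex I, 2 fell in neuroblasts against WT qNSC1 without the block (Cs and Suclg1) and 5 with it. Of all genes, 12.4% were called there without the block and 19.8% with it. The median without it was -1.11 against -0.29 for the members and -0.17 for all genes. Cs, citrate synthase, was at 64.4, 104, 136 and 36.6 CPM in neuroblasts of pA to pD and 430, 361, 341 and 179 in qNSC1 (log2 fold change -2.19 ± 0.55 SE, adjusted p = 0.0114, edgeR). By sort 2 fell in NB against NSC (Cs and Pdha1), where 11.8% of all genes were called. In pM and pJ Suclg1 and Suclg2 fell against TAPs (4.1% of all genes called) and vSVZ astrocytes (12.6%). The list medians there were -0.86 and -1.38, where those of all genes were -0.16 and -1.06. Of 14 tested electron carriers and exchangers, Gpd2 and Etfa fell against WT qNSC1, Slc25a5 against the NSC sort and against TAPs. In oligodendrocytes Idh2 and Suclg2 fell against qNSC1 (11% of all genes called) and, by sort, against NSC (6.1%). Etfa fell there against qNSC1, and against neuroblasts Idh2 fell and Gpd2 rose, by label (11.4% of all genes called) and by sort (15.7%). Of 35 assembly factors outside the rule, Cox10 fell in neuroblasts against WT qNSC1 and against vSVZ astrocytes, and no other was called without the block. The 13 mtDNA-encoded genes, of which only 9 passed the filter on low counts in pM and pJ, gave 0 calls without the block. At an unadjusted p under 0.05 there was at most 1 of them in a comparison.

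Of 12 tested regulators of mitochondrial biogenesis, Ppargc1a, the coactivator PGC-1 alpha, was called in 5 comparisons without the block. It was at 163, 151, 163, 76.1 and 123 CPM in qNSC1 of pA to pE. Neuroblasts had 0.230, 0.303, 0.450 and 52.1 CPM in pA to pD and oligodendrocytes 0.328, 0.216 and 0 in pA to pC. In naive pJ and pM vSVZ astrocytes had 133 and 91.9 CPM, TAPs 6.06 and 13.1 and neuroblasts 0 and 0.441. It fell in NB and OLIGO against NSC (adjusted p = 0.000239 and 0.000185, edgeR), in oligodendrocytes against qNSC1 (0.0074) and in naive neuroblasts against TAPs (0.0263) and vSVZ astrocytes (0.000426). In those 5 comparisons 11.8%, 6.1%, 11%, 4.1% and 12.6% of all genes were called, in that order. In WT neuroblasts against qNSC1, where the 7 cells of pD stood apart, it passed only with the block (adjusted p = 0.0438, 19.8% of all genes called). Yy1 rose in WT neuroblasts against qNSC1 (log2 fold change 2.35 ± 0.57 SE, adjusted p = 0.00881, 12.4% of all genes called) and in NB against NSC. Esrra, Gabpb1 and Nrf1 fell in OLIGO against NB (15.7% of all genes called), and Gabpa fell in naive neuroblasts of pM and pJ. These genes were named after their values were seen.

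The olfactory bulb was next set against vSVZ neuroblasts of the same library set, pF against pC and pD. Letters pC and pD themselves differ, as their qNSC1 shares above show. With 1 letter of bulb there was no replicate check here and no p-value. Members took 2.70% of counts in 55 bulb cells, 1.43% in 27 neuroblasts of pC and 2.97% in 7 of pD. Against pC and pD summed, 77 of 85 members lay higher (median log2 ratio 0.61 with 5 CPM added, 0.15 for all genes), 20 were past 2-fold higher and 0 past 2-fold lower, where 21.5% and 14.6% of all genes were. The value depended on the letter: the median was 0.84 against pC alone and 0.18 against pD alone, below the 0.91 of all genes in the latter. Above both letters lay 42 of 85 members, where 45.9% of all genes did, and below both 2, where 15.2% did. Past 2-fold higher than each were 8 members, against 17.5% of all genes. Among them were Atp5h, Ndufa11, Ndufb2, Ndufb4 and the assembly factors Ndufaf3 and Ndufaf6.

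Atp5h, a peripheral stalk subunit of ATP synthase, was at 734 CPM in bulb against 259 in pC and 287 in pD. Ndufaf3 was at 98.2 CPM (95% Poisson interval 91.9 to 105) against 17.1 and 33.3, and Ndufb2, a small membrane-arm subunit, at 180 against 44.1 and 81.0. All of these were well above both letters. Intervals cover counting error alone. Among genes chosen by the summed ratio, Ndufv3 was at 323 against 86.5 CPM, Ndufb8 at 774 against 214 and Ndufb9 at 576 against 195. By letter these genes were at 56.8, 163 and 156 CPM in pC and 233, 462 and 391 in pD. None of them was past 2-fold higher than pD. Cox6b2 stayed low in bulb, with 13 counts in 1 cell. Summed mature neuron markers were 824 CPM in bulb and 108 to 695 in the 7 sums of vSVZ neuroblasts, and cycling markers 33.8 against 0 to 1673. Their part in the result was not tested.

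**Figure D3:**
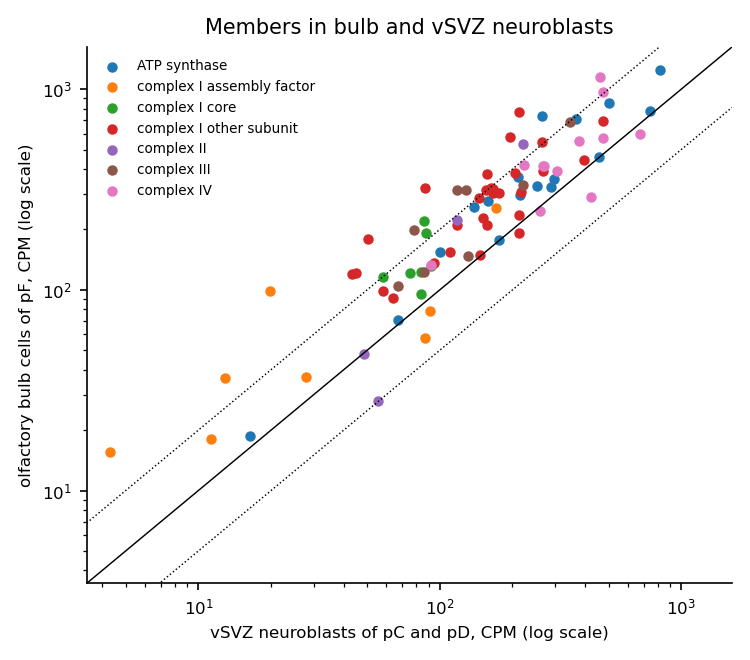
CPM of each of 85 members in olfactory bulb cells (pF) against that in vSVZ neuroblasts of pC and pD summed, log axes, with the diagonal and dotted lines at 2-fold. Of these, 77 lie above the diagonal and 20 are past 2-fold higher once 5 CPM are added to both values.

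At 2 d after ischemia the members' medians had opposite signs in the GLAST-sorted cells of striatum and vSVZ, with 1 sum a group and so no replicate check or p-value. In TiCY each condition is its own letter, so letter and condition cannot be told apart, while both knockout groups are of pJ. Those 2 groups differ in treatment and genotype label, so they are not of the same mice. In TiCY striatum their share was 1.52% in 131 naive cells, 1.12% in 122 cells at 2 d and 1.94% in 79 cells at 21 d. In TiCY vSVZ it was 1.48% (188 cells), 1.83% (176) and 2.01% (155). Across these letters the striatal share was lowest at 2 d and the vSVZ share was lowest in naive cells. Median counts per TiCY striatal cell were 142356 naive, 404706 at 2 d and 174602 at 21 d. In TiCY vSVZ they were 162568, 196498 and 153937. In the knockout the share was 1.62% naive and 1.35% at 2 d in striatum (35 and 114 cells) and 1.78% and 2.31% in vSVZ (134 and 228). Median counts per knockout cell were 137876 naive and 98844.5 at 2 d in striatum, and 168856 and 141748 in vSVZ. The part of letter and depth in these shares was not tested.

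For TiCY striatum at 2 d the median log2 ratio to naive was -0.42 (all genes 0.18), with 61 of 90 members lower, 20 past 2-fold lower (14.8% of all genes) and 3 past 2-fold higher (21.5%). For vSVZ it was 0.18 (all genes 0.08), with 54 of 88 higher, 14 past 2-fold higher (16.5%) and 4 lower (14.2%). In the knockout the striatal median was -0.27 (all genes 0.25; 11 of 87 past 2-fold lower, 9.35% of all genes, and 4 higher, 25.1%). The vSVZ median was 0.29 (all genes 0.08; 3 of 88 past 2-fold higher, 12.8%, and 1 lower, 13.1%). By labelled type within pJ it was -0.36 in striatal astrocytes and 0.42 in vSVZ astrocytes, 0.35 in qNSC2, 0.18 in aNSC, 0.12 in TAPs and 0.29 in neuroblasts. By exon length, the medians in TiCY striatum were -0.18, -0.46 and -0.41 for exons of 1 kb or less, 1 to 2 kb and over 2 kb, against 0.44, 0.28 and 0.12 for other genes. In TiCY vSVZ they were 0.38, 0.18 and 0.08 against 0.35, 0.15 and 0.04 for other genes, so the members there lay close to other genes of like length.

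Among single members of TiCY striatum at 2 d, Uqcrfs1, the Rieske iron-sulfur protein of complex III, was at 25.7 CPM (24.3 to 27.2) against 184 (177 to 191) naive, a log2 ratio of -2.62. Ndufs1, the largest core subunit of complex I, was at 45.8 against 165 CPM, and Uqcrb, another complex III subunit, at 31.1 against 121. Ndufb2 was at 25.8 against 109, the assembly factor Ndufaf2 at 26.1 against 108 and Atp5j, coupling factor 6 of ATP synthase, at 258 against 764. All of these intervals are far apart, though they do not cover spread between mice. Higher were Cox4i2 (48.9 against 12.6 CPM), Sdhc, a membrane anchor of complex II (166 against 61.0), and Cox6b1 (368 against 163).

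Some of these genes went the other way in the knockout striatum, although its median was below 0 as well. Ndufs1 was at 263 CPM at 2 d against 129 naive, Ndufaf2 at 119 against 9.59 and Cox4i2 at 3.91 against 25.3, each opposite to TiCY. Uqcrfs1 was at 159.5 against 93.6, also opposite, while Ndufb2 (65.3 against 116) and Uqcrb (70.5 against 102) were again lower. The naive Ndufaf2 level in TiCY was 108 CPM, so the knockout contrast rests on a low naive value from 42 counts. Lower there were Ndufa1 (92.5 against 302 CPM), Ndufaf8 (10.6 against 63.5), Uqcrq (64.1 against 161) and Uqcr10 (58.4 against 146).

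In TiCY vSVZ at 2 d, Cox7a2l was at 354 against 127 CPM, Atp5k, subunit e of ATP synthase, at 156 against 51.5, Ndufa4, a complex IV subunit, at 368 against 146, and Cox6a1 at 589 against 240. Lower were Uqcrfs1 (65.7 against 171), Ndufb2 (31.9 against 76.7), Uqcrb (66.5 against 140) and Cox6b2 (5.32 against 17.7). Uqcrfs1, Uqcrb and Ndufb2 were thus lower in both tissues, whatever the median did. In the knockout vSVZ Ndufb7 was at 1119 against 448 CPM and Cox6b2 at 20.2 against 48.2.

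At 21 d TiCY cells lay above naive in both tissues, with medians of 0.37 in striatum (10 of 89 past 2-fold higher, 11.5% of all genes, and 4 lower, 8.82%) and 0.48 in vSVZ (17 of 88, 7.57%, and 3 lower, 7.22%). Uqcr10, a small complex III subunit, was at 440 against 168 CPM in striatum and 417 against 125 in vSVZ. Ndufs8, a core iron-sulfur subunit, was at 172 against 67.4 and 189 against 60.3. Uqcrfs1 remained low at 42.9 and 36.9 CPM, and Sdhd, the other membrane anchor of complex II, was at 28.8 against 73.4 and 30.4 against 82.6. Against 2 d, striatal members lay 0.75 higher at 21 d (81 of 90; 26 past 2-fold higher, 14.5% of all genes, and 3 lower, 18.7%), a contrast that shares the 2 d cells with the one above. In vSVZ that median was 0.13.

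Other cell types' markers moved with these contrasts. The 6 astrocyte and quiescent stem cell markers summed to 7593 CPM in TiCY striatum at 2 d against 34700 naive, and in vSVZ to 6229 against 27121. Endothelium markers were 99.2 against 4.78 CPM with 4 of 4 detected, microglia markers 37.1 against 3.98 with C1qb at 0, pericyte markers 42.2 against 59.3 with Kcnj8 at 0, and neuroblast markers 232 against 47.8. In vSVZ neuroblast markers were 2795 against 449 CPM. In the knockout striatum astrocyte markers were 22040 against 31133 CPM and neuroblast markers 459 against 19.4, and in the knockout vSVZ 10276 against 22874 and 1142 against 311. At 21 d TiCY astrocyte markers were 20353 CPM in striatum and 16101 in vSVZ, neuroblast markers 230 and 358, and oligodendrocyte markers 88.7 and 66.5 against 13.5 and 27.1 naive. Their part in the members' values was not tested.

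**Figure D4:**
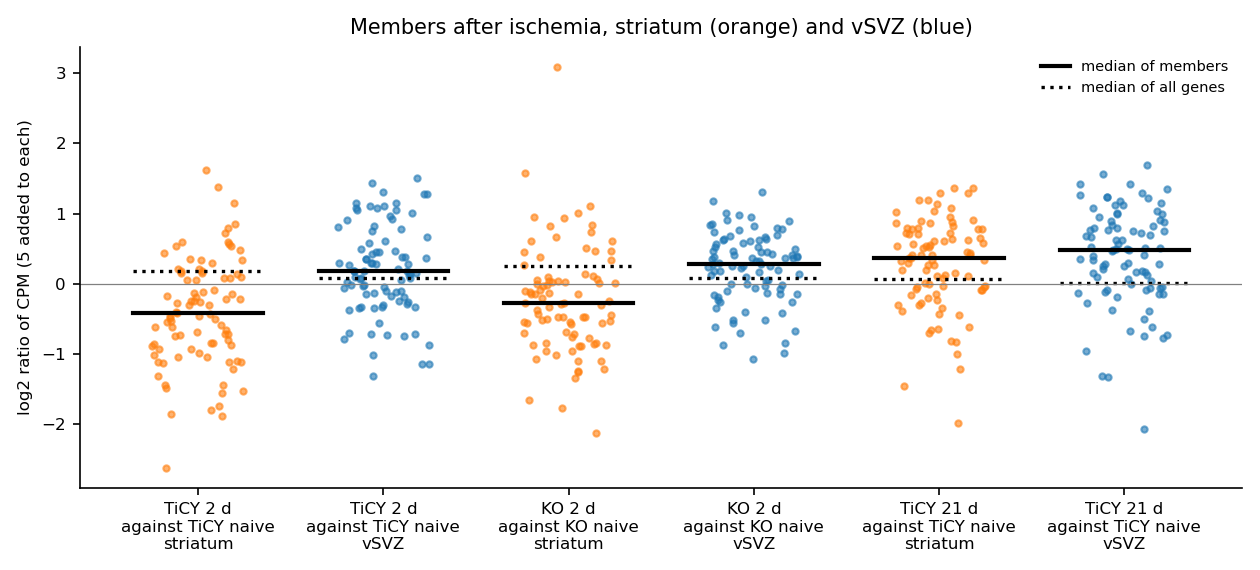
Log2 ratio to naive of each member (points) at 2 d in TiCY, at 2 d in the knockout and at 21 d in TiCY, striatum in orange and vSVZ in blue, with the median of members as a solid line and that of all genes dotted. At 2 d the striatal medians are -0.42 and -0.27 and the vSVZ medians 0.18 and 0.29, and at 21 d both are above 0.

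Knockout and TiCY cells were compared only across letters, pJ against pM or pI, so genotype and letter cannot be told apart. Naive medians were 0.16 in striatal astrocytes, 0.17 in aNSC, 0.19 in qNSC2, 0.30 in vSVZ astrocytes, 0.31 in neuroblasts and 0.42 in TAPs. In vSVZ astrocytes 5 of 87 members were past 2-fold higher (6.64% of all genes) and 0 lower (10.3%). At 2 d the medians were 0.42 in vSVZ and 0.24 in striatum. Cortical against striatal astrocytes of pL, 32 and 33 cells, gave -0.02, with 1 of 86 past 2-fold higher (9.46% of all genes) and 4 lower (10.5%).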

How the data were processed

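The authors deposited raw counts per gene and cell, made with STAR and featureCounts on GRCm38 (mm10), per the submitters' processing notes; the sources used here do not give versions, annotation, strand setting or cell filters. Of 2584 cells in the table, 1981 matched a label by name; 603 matched none and were not used, nor were 103 labelled cells with no row there. Counts were summed per type or sort and letter, leaving out sums under 3 cells. Members and lists were chosen with earlier results of these data known.

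Tests used edgeR 4.0.16 (R 4.3.3; TMM, filterByExpr, quasi-likelihood, Benjamini-Hochberg over all genes, threshold 0.05) in 3 fits: WT types (22 sums), WT sorts (12) and naive pM and pJ (12); DESeq2 1.42.0 and limma 3.58.1 served as alternatives, and scripts were tested on simulated data. Since letters may pool mice, p-values measure spread between letters. Without replicates, log2 ratios of CPM with 5 added were taken over genes with 100 or more counts. Named members are those called (at most 12 a direction), otherwise the 3 of smallest p, and without a test the 6 largest past 2-fold a direction, plus fixed isoform groups; the members called only with the block, and those past 2-fold in the bulb against each letter, were named after their values were seen. Coordinates are 1-based GENCODE M21 on GRCm38; 10 members overlap a gene on the same strand and 38 on either, so some reads may be assigned either way.

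Letters pair the sums, each letter being a biological replicate of individual or pooled mice. Residuals of sums of 1 letter correlated at 0.171 to 0.572 in WT (24 pairs) and 0.184 to 0.505 in sorts (12). Between letters the medians were -0.125 and -0.2625. With only pM and pJ the check is void, since the value between letters is the negative of that within them, and the pairing rests on the labels. The fit without the letter as a block is the main one, and the replicate block is given where it changes a call or count.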

Additional observations from a re-analysis of the deposited data

Results flagged for a closer look

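In 21 groups of 4 or 5 letters checked for single members, 1 letter stood far from the others in 5. The rule's rate of about 1 in 20 holds for normally spread values. Some groups here were at or near 0 in most letters, so that rate need not apply. Letter pD was that letter in 4 of them: Ndufs4 in WT qNSC1 at 347.2 CPM (next 56.4), Ndufb2 in WT qNSC1 at 441 CPM (next 139), Cox6b2 in WT neuroblasts at 2.46 CPM (next 0.212) and Cox7a1 in WT qNSC2 at 1.63 CPM (the others 0). Ndufaf6 in WT qNSC2 was at 16.8 CPM in pA (next 2.72).

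At 2 d after ischemia the median log2 ratio of members to naive had opposite signs in the 2 tissues: -0.418 in striatum and 0.1807 in vSVZ for TiCY, and -0.2708 and 0.288 for the knockout by sort. With 1 letter a group, the difference between tissues was not tested.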

How the results depend on the processing

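Counts of members called moved with the method. With the replicate block, which pairs sums by letter, the count was 1 for WT aNSC against qNSC2, 10 for neuroblasts against qNSC1, 2 and 9 for oligodendrocytes against qNSC1 and neuroblasts, 4 for NB against NSC and 5 for OLIGO against NB; it moved no other count by over 1.5 times and, beyond Ndufs5 and Uqcrq in naive neuroblasts against TAPs, changed no other call. DESeq2 called 1 for neuroblasts against TAPs, 4 against qNSC1, 1 for oligodendrocytes against each of qNSC1 and neuroblasts, 2 for NB against NSC, 4 for OLIGO against NB and, in pM and pJ, 1 for TAP against aNSC and 11 and 12 for neuroblasts against TAPs and vSVZ astrocytes. With cells weighted equally (limma) the counts were 2 for aNSC against qNSC2, 2 for neuroblasts against qNSC1, 0 for NB against NSC, 1 for OLIGO against NSC, and 2 and 3 for naive neuroblasts against TAPs and vSVZ astrocytes. Library set as a term gave 4 for neuroblasts against qNSC1, 1 and 2 for oligodendrocytes against qNSC1 and neuroblasts, 4 for NB against NSC and 5 for OLIGO against NB. Within pA, pB and pE there were 3 for neuroblasts against qNSC1 and 1 for oligodendrocytes against neuroblasts (1 with the block), and within pC and pD 0 for neuroblasts against qNSC1 with or without the block. Sums of 10 or more cells gave 3 for neuroblasts against qNSC1, and no filter 0 for OLIGO against NB. Leaving out 1 letter gave 0 to 3 for neuroblasts against qNSC1, 0 to 1 for oligodendrocytes against neuroblasts, 0 for NB against NSC and 0 to 1 for OLIGO against NB. Without pM or pJ no letter is left to measure spread, so that test was not run. The causes were not tested.

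Medians of members with TMM factors were 0.46 for the bulb, 0.091 and -0.54 for TiCY 2 d in vSVZ and striatum, 0.20 for 21 d against 2 d in vSVZ, 0.50 for knockout against TiCY at 2 d in vSVZ, and 0.21 and -0.47 for the knockout at 2 d in vSVZ and striatum. With cells weighted equally they were 0.47 for knockout against TiCY aNSC, 0.31 and -0.054 for vSVZ astrocytes and aNSC of the knockout at 2 d, -0.32 for TiCY 2 d striatum, and 0.21 and 0.68 for 21 d against 2 d in vSVZ and striatum. The bulb median ran from 0.18 without pC to 0.84 without pD. Of single members, Cox4i2 in oligodendrocytes against qNSC1 reversed to 3.90 within pC and pD with the block, where both types had no count. Of the other values of single members, 503 kept direction and side of the threshold, 15 gained it and 24 lost it. Counts for groups of 2 or 3 letters, and levels under about 1 CPM, are limited by few cells.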
